A study of Mus musculus with 20 samples.

Results

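The urea cycle and nitrogen disposal genes were followed in the livers of male BALB/c mice with and without streptozotocin (STZ) diabetes. The set was given by symbol and held 10 genes, Cps1, Nags, Otc, Ass1, Asl, Arg1, Slc25a15, Slc25a13, Oat and Gls2. A gene was represented by a probe set annotated to that gene alone, and by the brightest such probe set where there were several. Of the 10 genes, 9 had a single-gene probe set, out of 18193 genes with one on the array, and no probe set was listed for Gls2, the liver glutaminase. All 9 passed the filter on dim genes, which kept 12952 genes. Asl, which releases arginine and fumarate from argininosuccinate, and Oat, which passes ornithine on towards glutamate, rose most, 3.67-fold and 2.96-fold in STZ liver. Both mitochondrial carriers rose too, whereas Cps1, Nags and Otc did not pass the test, although Cps1 did with quantile normalization.

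The urea cycle converts ammonia and the amino group of aspartate into urea, and in mammals the complete cycle runs in hepatocytes. CPS1, switched on by the N-acetylglutamate that NAGS makes, and OTC work in the mitochondrion, and ASS1, ASL and ARG1 in the cytosol, so that ornithine, citrulline and aspartate have to cross the inner mitochondrial membrane. The cycle enzymes are abundant in periportal hepatocytes, and OAT lies with glutamine synthetase in hepatocytes around the central vein. In rats, dietary protein, glucagon and glucocorticoids are known to raise the cycle enzymes.

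Each mouse's liver RNA was hybridised to its own Affymetrix mouse array, and there were 5 arrays per group. The 4 groups were STZ mice on plain AIN93G diet, STZ mice on this diet with 0.1% phloridzin, STZ mice on it with 0.5% phloridzin, and untreated mice on plain AIN93G diet. Mice arrived at 6 weeks of age. The STZ groups had 1 intraperitoneal dose of STZ, which destroys pancreatic beta cells, at 185 mg/kg in citrate buffer, and entered the diets with blood glucose of 330 to 590 mg/dL. Untreated mice had no injection, so STZ, its vehicle, the injection and the diabetes cannot be told apart. The diets lasted 14 days and all mice fed freely, with 6 mice per group in the study. Phloridzin is a plant glucoside that blocks sodium-glucose cotransporters. Per the study's design text mice were kept 3 to a cage, and which of them shared a cage is not given. The fits take the 5 mice of a group as independent, and their p-values measure the spread between these mice.

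The signal of a probe set is a linear brightness that the authors had scaled so that its mean over probe sets, less 2% at either end, was 100 on every array. Differences are of log2(signal + 16), and a fold is the ratio on that scale, which understates changes of dim genes, and with 5 arrays a group precision is limited by their number. The STZ + 0.1% phloridzin replicate 4 array stood apart, with a highest signal of 37014 against 12257 to 20257 on the other arrays, a bioD spike-in signal of 9793 against 1816 to 3210, and a cre spike-in signal of 24123 against 6198 to 10445. It was the brightest array for Cps1, Arg1, Oat and Otc. The tissue label liver was checked with hepatocyte markers, which were bright on all arrays. Of 5 measured, Fgb fell in STZ liver and the other 4 were not called. In the STZ group their summed signal lay between 45477 and 64408, with 0.1% phloridzin between 55306 and 130237, with 0.5% phloridzin between 54191 and 60955, and in the untreated group between 64689 and 73540. Some markers of other cell types also moved. The 5 B and plasma cell markers summed to 97.1 to 167 in STZ liver, against 379 to 511 in untreated liver, and 2 of the 5 fell, in a comparison that called 13.8% of all genes. The 6 stellate cell markers summed to 1195 to 2011 in STZ liver, against 1577 to 2761 in untreated liver, and Col3a1 (−1.35) and Pdgfrb (−1.11) fell. Of 6 Kupffer cell markers only Cd5l was called (0.52), with a list median of 0.08. Only Lyve1 (1.19) was called of 5 sinusoidal endothelium markers, whose median was −0.16. Only Sox9 (−0.74) was called of 4 cholangiocyte markers, whose median was 0.15. The 2 erythroid markers summed to 195 to 1365 in STZ liver, against 1259 to 1452 in untreated liver. The 3 exocrine pancreas markers summed to 382 to 883 in STZ liver, against 1443 to 1913 in untreated liver, nearly all of it from Cela1, while the pancreas-defining Cpa1 averaged 1.20 in STZ and 1.19 in untreated liver. Fewer cells of a type and less RNA per cell cannot be told apart in whole liver, and the part of these shifts in the results was not tested.

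**Figure D1:**
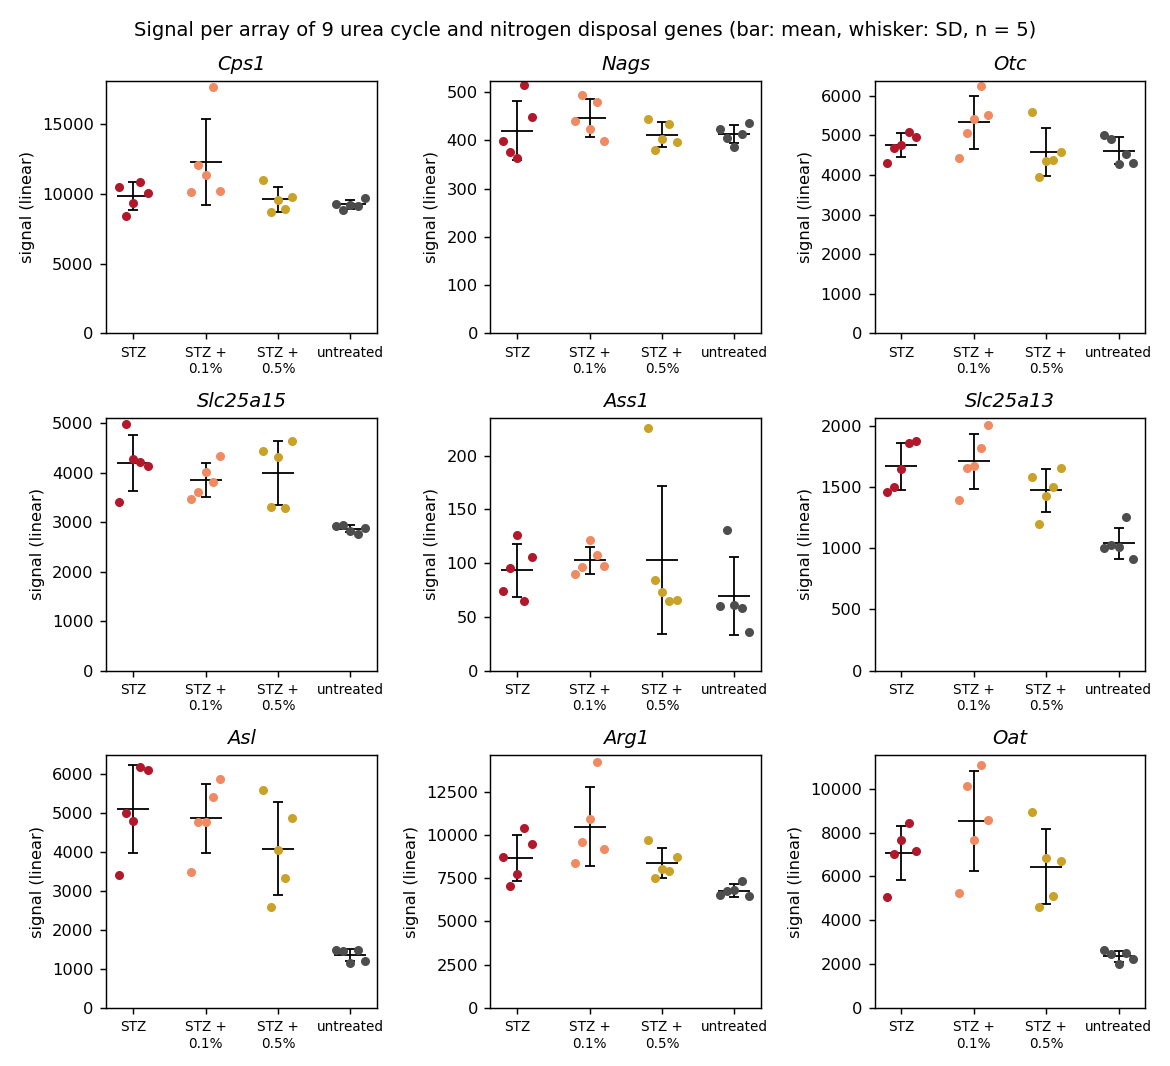
Linear signal per array (y axis, from 0) for 9 genes in the 4 groups (x axis), with points for mice, a bar for the mean and whiskers for the SD of 5 arrays. For Asl, Oat and Slc25a15 the 15 STZ arrays, with or without phloridzin, lie above the 5 untreated arrays.

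STZ against untreated liver asks how the expression of these genes differed between STZ-diabetic and untreated mice. Asl, Oat, Slc25a13 and Slc25a15 rose, and no gene of the set fell. That was 4 of 9 tested genes called higher at an adjusted p under 0.05, and the STZ and untreated arrays of these 4 did not overlap. Of all 12952 genes 13.8% were called in this comparison, 6.9% of all genes were called higher, and for 12.9% the arrays did not overlap. Of the calls over all genes 49.9% were higher, and 69.0% after median centring, under which the calls of these 4 genes held. Without STZ replicate 5 the count of all genes called was 1175, against 1791 with it. The differences of the 9 genes ran from 0.02 to 1.87 log2 units with a median of 0.41, beside a median of −0.05 over all genes. That 0.41 is the value of Ass1, which was not called and whose single-gene probe set was dim. Of the 9 genes, 9 had a difference above 0, or 8 with quantile normalization, beside 42.7% of all genes. The genes largely varied together among mice of a group, as described below, so these signs are not independent. The signs of Otc and Nags were not firm. The mean of probe sets gave −0.25 for Otc, and Nags changed sign in 3 of the 20 fits that left out 1 array. By p-value, Asl ranked 19 and Oat 38 of 12952.

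Asl had signals of 3409, 5008, 4786, 6177 and 6099 on the STZ arrays, against 1483, 1457, 1157, 1476 and 1207 on the untreated arrays. With phloridzin they were 3490.5, 4758, 4781, 5401 and 5869 at 0.1% and 5587, 2578, 4059, 3333 and 4877 at 0.5%. The lowest of the 15 STZ arrays, 0.5% phloridzin replicate 2, was still above the highest untreated array. Asl averaged 5096 ± 1132 in STZ and 1356 ± 160.2 in untreated liver (SD, n = 5 each), a difference of 1.87 ± 0.19 log2 units (SE; 95% interval 1.47 to 2.28; limma adjusted p = 2.52e-06).

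Oat, the mitochondrial ornithine aminotransferase, had signals of 5074, 7004, 7675, 8447 and 7143 on the STZ arrays, against 2617, 2449.8, 1984, 2503 and 2223 on the untreated arrays. With phloridzin they were 5218, 10122, 7657, 11074 and 8553 at 0.1% and 8944, 4594, 6858, 5112 and 6699.9 at 0.5%. All 15 STZ arrays were above all 5 untreated arrays, and the 0.1% phloridzin arrays were spread widest. Oat averaged 7069 ± 1250.5 in STZ and 2355 ± 252 in untreated liver, a difference of 1.57 ± 0.19 log2 units (95% interval 1.17 to 1.97; adjusted p = 2.49e-05).

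Of the carriers, Slc25a13 encodes citrin, which brings aspartate out of the mitochondrion in exchange for glutamate. Its signals were 1459, 1499, 1650.1, 1860.2 and 1872 on the STZ arrays, against 1003, 1026, 1013, 1253 and 908 on the untreated arrays. With phloridzin they were 1397, 1655, 1674, 1821 and 2007 at 0.1% and 1578, 1199.7, 1424, 1502 and 1658 at 0.5%. Untreated replicate 4 was the highest of its group and lay above 0.5% phloridzin replicate 2, the only STZ array within the untreated range. Slc25a13 was 1.59-fold higher in STZ than in untreated liver (0.67 ± 0.12 log2 units; adjusted p = 0.000817).

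Slc25a15, the carrier that exchanges cytosolic ornithine for mitochondrial citrulline, had signals of 3407, 4996, 4279.5, 4222 and 4133 on the STZ arrays, against 2929.9, 2946, 2827, 2767 and 2885 on the untreated arrays. With phloridzin they were 3476, 3613, 4027, 3824 and 4339 at 0.1% and 4435, 3307, 4318, 3288 and 4645 at 0.5%. The untreated mice lay within a narrow band, with a SD of 74.1, and every STZ array was above it. The difference between STZ and untreated liver was 0.54 ± 0.11 log2 units, or 1.45-fold (adjusted p = 0.00365). A dimmer probe set of Slc25a15 averaged 778 ± 56.7 in STZ and 395 ± 108 in untreated liver, and in a fit of all 23648 probe sets kept, 10.3% of which were called, its difference was 0.99 (adjusted p = 0.00128).

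**Figure D2:**
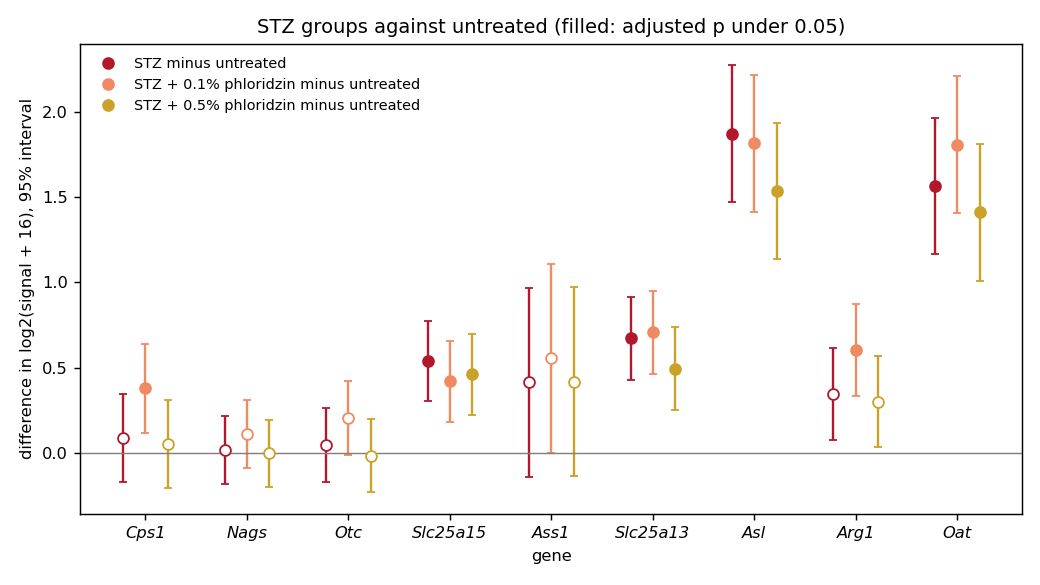
Difference in log2(signal + 16) from untreated liver (y axis) for 9 genes (x axis) in the STZ, STZ + 0.1% phloridzin and STZ + 0.5% phloridzin groups, with 95% intervals and filled points for an adjusted p under 0.05. Asl and Oat lie between 1.41 and 1.87 in all 3 groups, and Cps1 and Arg1 are filled with 0.1% phloridzin alone.

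Promoter sequence is shown for the genes that rose together, to let their start regions be compared. The RefSeq table of GRCm38.p6 held Oat, Slc25a13 and Slc25a15 among these, and also Ass1, Nags and Otc. Asl, Cps1, Arg1 and Gls2 were not matched. The 250 bases before the start are printed 5′ to 3′ on the gene's strand. Capitals mark matches, on either strand, to 5 short motifs. These were the CCAAT box (CCAAT), the TATA box (TATAAA), the shared core of cyclic AMP response elements (TGACG), the core hexamer of glucocorticoid response elements (TGTTCT) and the GC box (GGGCGG). The matches in the printed stretches did not overlap.
Oat, chr7:132576399-132576648, minus strand: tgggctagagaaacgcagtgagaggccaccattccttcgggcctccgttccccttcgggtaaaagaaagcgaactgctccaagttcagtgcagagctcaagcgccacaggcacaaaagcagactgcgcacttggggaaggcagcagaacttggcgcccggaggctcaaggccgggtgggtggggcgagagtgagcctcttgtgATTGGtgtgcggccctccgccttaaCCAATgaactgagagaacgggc
Slc25a13, chr6:6217174-6217423, minus strand: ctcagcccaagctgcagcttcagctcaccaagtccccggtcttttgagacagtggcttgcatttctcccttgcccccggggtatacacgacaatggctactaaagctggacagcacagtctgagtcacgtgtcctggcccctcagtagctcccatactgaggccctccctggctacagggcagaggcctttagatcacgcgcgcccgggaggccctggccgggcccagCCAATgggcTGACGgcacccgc
Slc25a15, chr8:22398622-22398871, minus strand: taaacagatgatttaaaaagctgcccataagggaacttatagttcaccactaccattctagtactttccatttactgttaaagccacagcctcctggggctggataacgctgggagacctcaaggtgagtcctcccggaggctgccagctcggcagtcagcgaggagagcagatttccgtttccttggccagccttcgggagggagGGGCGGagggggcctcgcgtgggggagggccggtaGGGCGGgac
The Oat stretch held CCAAT at 47 bases before the start, read on the other strand, and at 22 bases. The Slc25a13 stretch, whose start is not the outermost of the gene, held CCAAT at 22 and the cyclic AMP core at 13 bases before the start. The Slc25a15 stretch held GGGCGG at 44 and 9 bases before the start. The stretch before a further listed start of Slc25a15, not printed, held 5 matches to the GC box, of which those at 12 and 8 bases overlap. Of 32851 promoter stretches of this length, 33.8% held the CCAAT box, 17.8% the cyclic AMP core, 32.7% the GC box, 12.4% the TATA box and 16.1% the glucocorticoid hexamer. Among genes of the set not called in STZ liver, the Ass1 stretch held 1 GC box, the Nags stretch 2, and the Otc stretch no match. No motif was shared by all 3 stretches printed.

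The entry enzymes of the cycle did not pass the test in STZ liver. Cps1, which makes carbamoyl phosphate from ammonia and bicarbonate, had signals of 10517, 8429.7, 9346, 10854 and 10062 on the STZ arrays, against 9287, 8841, 9176, 9155 and 9736 on the untreated arrays. The groups overlapped, and the difference was 0.09 log2 units (95% interval −0.17 to 0.35; adjusted p = 0.696). With quantile normalization it was 0.24 and passed (adjusted p = 0.0382). Nags, whose product is the obligate activator of CPS1, averaged 421 ± 62.0 in STZ and 413 ± 18.8 in untreated liver, a difference of 0.02 (−0.18 to 0.21). These intervals leave room for changes of up to about 1.27-fold upwards for Cps1 and 1.16-fold for Nags.

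Otc, which joins carbamoyl phosphate to ornithine, averaged 4752 ± 295 in STZ and 4607 ± 340.5 in untreated liver by its brightest probe set, a difference of 0.05 (−0.17 to 0.26). Its other 2 probe sets went the other way. The middle one averaged 2646 ± 879.9 in STZ and 3025 ± 284 in untreated liver, a difference of −0.25 (adjusted p = 0.46). The dimmest had signals of 68.7, 81.2, 59.1, 106 and 59.1 on the STZ arrays, against 126, 129.8, 135, 106 and 84.6 on the untreated arrays, a difference of −0.55 (adjusted p = 0.0585). It was called lower against untreated liver with 0.1% phloridzin (−0.61, adjusted p = 0.0321), where 13.6% of probe sets were called, and with 0.5% phloridzin (−0.63, adjusted p = 0.0347), where 9.72% were. Without 0.1% phloridzin replicate 4 the first of these calls was lost (−0.61, adjusted p = 0.056) and the second was kept (adjusted p = 0.0406). No direction is therefore given for Otc.

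Ass1, which condenses citrulline with aspartate, had only a dim single-gene probe set, with signals of 73.8, 95.7, 126, 65.2 and 106 on the STZ arrays, against 60.4, 131, 60.7, 58.3 and 36.3 on the untreated arrays. The groups overlapped, and the difference of 0.41 had a 95% interval of −0.14 to 0.97 (adjusted p = 0.325), the widest of the set. A bright probe set annotated to both Ass1 and the pseudogene Gm5424 had signals of 7029.6, 7493, 7921, 9648 and 8669.8 on the STZ arrays, against 7185, 5952, 5436, 6294 and 4727 on the untreated arrays. Its difference was 0.47 (0.09 to 0.84; adjusted p = 0.102), and which of the 2 genes it reports cannot be told apart.

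Arg1, the liver arginase that releases urea and ornithine, had signals of 8709, 7048, 7761, 10426 and 9473 on the STZ arrays, against 6522, 6752, 6819, 7371 and 6456 on the untreated arrays. A single STZ array, replicate 2, lay below the highest untreated array. The difference of 0.34 (0.07 to 0.61) missed the threshold (adjusted p = 0.0833). It passed without STZ replicate 2 (0.41, adjusted p = 0.0478) and without STZ + 0.1% phloridzin replicate 4, which enters the shared estimate of spread (0.34, adjusted p = 0.0413). It passed as well with quantile normalization (0.46, adjusted p = 0.00175), median centring (0.42, adjusted p = 0.0455) and array weights (0.32, adjusted p = 0.0439).

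Both phloridzin groups of STZ mice were also set against the same untreated mice, so the 3 comparisons share their controls. With 0.1% phloridzin, 6 of 9 genes were called higher, beside 16.8% of all genes called and 7.77% called higher. With 0.5% phloridzin, 4 of 9 were called higher, beside 12.7% and 6.54%. The 1650 genes called over all at 0.5% became 940 without 0.5% phloridzin replicate 1, 984 without its replicate 5 and 1089 without untreated replicate 1, and the 4 genes were called without each of these arrays. In both, Asl and Oat differed most, by 1.82 and 1.81 at 0.1% and by 1.54 and 1.41 at 0.5% phloridzin. Slc25a13 differed by 0.71 at 0.1% and 0.49 at 0.5% phloridzin, and Slc25a15 by 0.42 at 0.1% and 0.46 at 0.5%. Non-overlap was met by 6 genes at 0.1%, beside 13.2% of all genes, and by 4 at 0.5%, beside 11.2%. At 0.5% these were Asl, Oat, Slc25a15 and Arg1.

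The other 2 genes called with 0.1% phloridzin were Arg1 and Cps1. Arg1 had signals of 8399, 9619.8, 10932, 14243 and 9219 with 0.1% phloridzin, against the untreated values above, and the groups did not overlap (0.60 ± 0.13 log2 units; adjusted p = 0.00364). Without replicate 4 the difference was 0.49 (adjusted p = 0.0102). With 0.5% phloridzin its signals were 9747, 7494, 8035, 7951 and 8713, again all above the untreated arrays, with a difference of 0.30 (0.03 to 0.57) that missed the threshold (adjusted p = 0.133).

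Cps1 had signals of 10131, 12072, 11319, 17618 and 10226 with 0.1% phloridzin, all above the untreated arrays, a difference of 0.38 ± 0.12 (adjusted p = 0.0416). The call depended on single arrays. Without replicate 4, the array that stood apart, the difference was 0.24 (adjusted p = 0.109), and the call was lost as well without each single untreated array and without 0.1% phloridzin replicates 2 or 3, at adjusted p of 0.0546 to 0.0821. With 0.5% phloridzin Cps1 averaged 9603 ± 915 against 9239 ± 324 in untreated liver (0.05; −0.21 to 0.31). The probe set annotated to Ass1 and Gm5424 averaged 10415 ± 3388 with 0.1% phloridzin and 5919 ± 922 in untreated liver (0.77, adjusted p = 0.00733). Its replicate 4 signal was 16008, and without that array the difference was 0.60 (adjusted p = 0.0208).

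Otc, Nags and Ass1 were not called in either phloridzin group against untreated liver. Otc averaged 5332 ± 668 with 0.1% and 4571 ± 609.5 with 0.5% phloridzin by its brightest probe set, against 4607 ± 340.5 in untreated liver, with differences of 0.20 (adjusted p = 0.186) at 0.1% and −0.02 (adjusted p = 0.940) at 0.5%. Nags averaged 447 ± 39.5 with 0.1% and 412 ± 26.6 with 0.5% phloridzin, against 413 ± 18.8 in untreated liver (0.11, adjusted p = 0.478, at 0.1%). The dim Ass1 probe set had signals of 89.5, 96.5, 122, 108 and 97.4 with 0.1% phloridzin and 225, 84.4, 73.5, 64.8 and 65.4 with 0.5% phloridzin. Its differences from untreated liver were 0.55 (−0.0013 to 1.11; adjusted p = 0.163) at 0.1% and 0.42 (−0.14 to 0.97; adjusted p = 0.333) at 0.5%, where replicate 1 alone was above the highest untreated array.

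Whether phloridzin changed these genes in diabetic liver was asked by setting each dose against STZ alone. No gene of the set was called at either dose, and limma called 0 of 12952 genes (0%) in each comparison. At an unadjusted p under 0.05 it held 684 genes for 0.1% and 625 for 0.5% phloridzin against STZ, 5.28% and 4.83% of all genes. Cps1 was the 1 gene of the set among them at 0.1% (0.29, 95% interval 0.03 to 0.55; adjusted p = 0.920), and none was at 0.5%. Without 0.1% phloridzin replicate 4 this Cps1 difference was 0.15, and with quantile normalization it was −0.044.

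The intervals show what these 5 arrays per group could not resolve. For 0.1% phloridzin against STZ the 9 differences ran from −0.12 for Slc25a15 to 0.29 for Cps1. Their median was 0.14, the value of the dim Ass1 probe set. Of the 9, 7 were above 0, or 5 with quantile normalization, beside 48.9% of all genes. For 0.5% phloridzin 8 of 9 were below 0, or 9 with quantile normalization, with a median of −0.06, while 55.4% of all genes were above 0. The difference farthest from 0 was that of Asl, −0.34 (−0.74 to 0.06), with 4087 ± 1196 at 0.5% phloridzin and 5096 ± 1132 in STZ liver. Oat differed by −0.15 (−0.55 to 0.25), Slc25a13 by −0.18 (−0.42 to 0.06) and Arg1 by −0.04 (−0.31 to 0.23). Over all 9 genes the limits of the intervals reached from −0.46 to 0.70 at 0.1% and from −0.74 to 0.56 at 0.5% phloridzin.

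Between the doses, 0.5% against 0.1% phloridzin, 8 of 9 differences were below 0 with a median of −0.22. Over all genes the median was 0.02, and 55.3% were above 0. With quantile normalization the median of the 9 was −0.13, again with 8 below 0. The 9 genes largely varied together among mice of a group, as described below, so their signs are not independent. None of the 9 was called, and limma called 0 of 12952 genes (0%), with 839 genes (6.48%) at an unadjusted p under 0.05. Cps1 (−0.33), Arg1 (−0.30) and Otc (−0.22) were among these, at adjusted p of 0.753 to 0.761. Without 0.1% phloridzin replicate 4 they were −0.19 for Cps1, −0.19 for Arg1 and −0.16 for Otc. Oat differed by −0.40 (−0.80 to 0.0036) and Asl by −0.28 (−0.68 to 0.12). Without 0.1% phloridzin replicate 4 the median over the 9 genes was −0.19, still with 8 below 0.

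**Figure D3:**
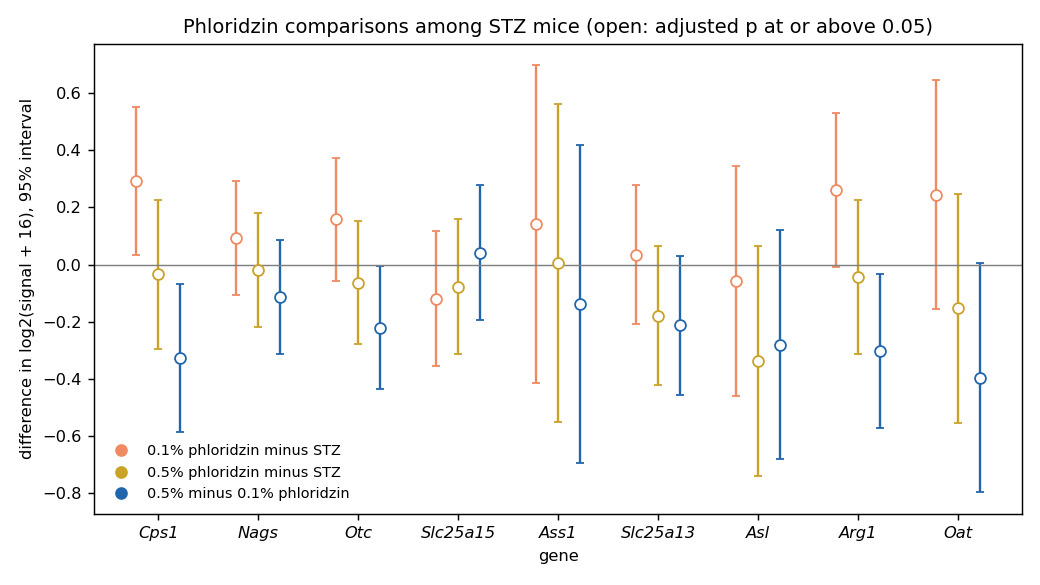
Difference in log2(signal + 16) among STZ groups (y axis) for 9 genes (x axis), for 0.1% phloridzin minus STZ, 0.5% phloridzin minus STZ and 0.5% minus 0.1% phloridzin, with 95% intervals. All points are open, since no adjusted p was under 0.05. The 0.5% minus 0.1% differences are below 0 for 8 of 9 genes, which largely varied together among mice of a group.

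Mice of a group differed in the level of these genes, and the genes largely varied together. After each group's mean was taken away, 34 of 36 pairs of genes had a Pearson correlation above 0 over the 20 arrays. The median was 0.52, and 0.45 without 0.1% phloridzin replicate 4. For each gene, the median correlation with 12943 genes outside the set lay between −0.09 (Asl) and 0.02 (Nags). Whether other bright liver genes vary together as much was not tested. By 100000 permutations of arrays within groups, two-sided, with adjustment over the 36 pairs, 9 pairs passed by Pearson's r and 5 of these by Spearman's rho as well. These 5 were Otc with Asl, Otc with Oat, Asl with Oat, Asl with Slc25a13, and Cps1 with Arg1.

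Asl and Oat, both high in STZ liver, correlated with r = 0.86 (permutation p = 6e-05, adjusted p = 0.00072) and rho = 0.74 (adjusted p = 0.012), and with r = 0.81 without the 2 arrays farthest from the median of Asl. Otc, whose brightest probe set did not separate the groups, correlated with Asl at r = 0.84 and rho = 0.86, and with Oat at r = 0.85 and rho = 0.72. These values rest on that probe set alone. No correlation was computed for the other Otc probe sets on their own, and fewer pairs passed with the mean of probe sets. Cps1 and Arg1 correlated at r = 0.88, at 0.77 without the 2 farthest arrays of Cps1 and at 0.79 without 0.1% phloridzin replicate 4. Pairs of Nags or of Ass1 with the rest did not pass, and Nags with Slc25a15 (−0.15) and with Ass1 (−0.12) were the 2 pairs below 0. Arrays share their scaling, and 15 pairs passed after quantile normalization and 20 after median centring. Without 0.1% phloridzin replicate 4, 12 passed.

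**Figure D4:**
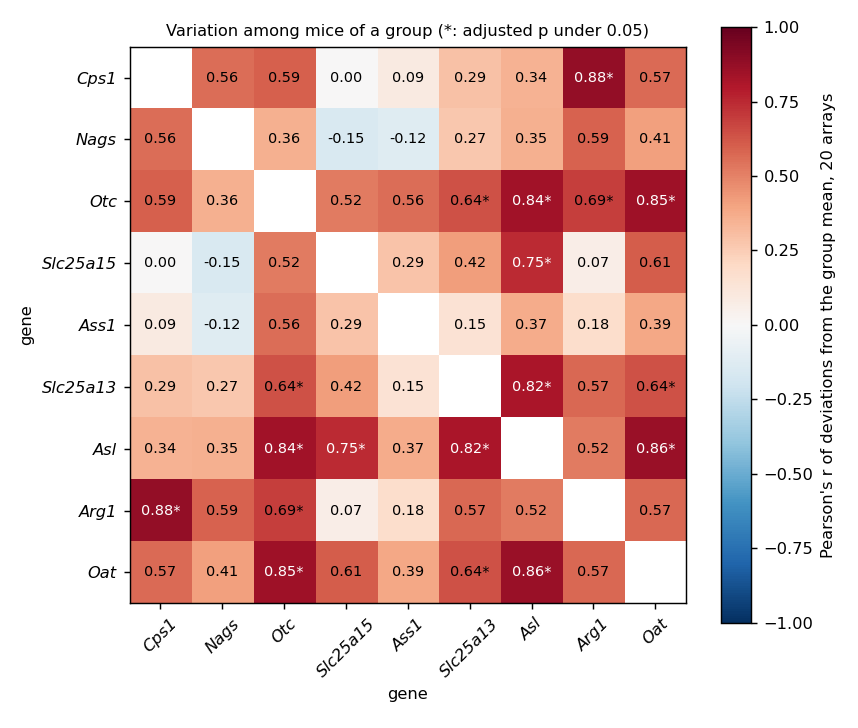
Pearson's r between genes (both axes) of deviations from the group mean in log2(signal + 16) over 20 arrays, with colour and number for r and a star for an adjusted permutation p under 0.05. The block of Otc, Asl, Slc25a13 and Oat and the pair of Cps1 and Arg1 hold 7 of the 9 stars.

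The genes outside the set whose deviations were most like those of each member were found among 12943 genes. For Cps1 this was Hpd (r = 0.97) and for Otc Hgd (r = 0.92), both enzymes of tyrosine breakdown. For Asl it was Slc38a4 (r = 0.92), a transporter of neutral amino acids, for Arg1 Hrg (r = 0.94), a plasma glycoprotein made by hepatocytes, and for Oat Hsd17b6 (r = 0.89), a hydroxysteroid dehydrogenase. For Slc25a15 it was Ccp110 (r = 0.93), a centriole protein, for Slc25a13 Apeh (r = 0.89), a peptidase, for Nags Eml3 (r = 0.86), a microtubule protein, and for Ass1 Fads6 (r = 0.83), a member of the fatty acid desaturase family. Each is the highest of many correlations over 20 arrays that share scaling, and is a description.

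The genes around the cycle were taken as 7 lists of 69 genes, of which 61 were tested. In STZ against untreated liver 18 were called higher and 6 lower, with 0.1% phloridzin 17 and 5, and with 0.5% phloridzin 14 and 2, beside the shares of all genes given above. The median difference of the 61 genes was 0.13, 0.15 and 0.19 in these comparisons. No companion gene was called for phloridzin against STZ at either dose or between the doses, and limma had 3, 3 and 7 of the 61 at an unadjusted p under 0.05.

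Of 6 genes that bring nitrogen in, 3 rose in STZ liver and 1 fell, beside 13.8% of all genes called. Got1, the cytosolic aspartate aminotransferase, averaged 4157 ± 1298 in STZ and 877 ± 250.4 in untreated liver (2.19 ± 0.31; adjusted p = 9.93e-05), a larger difference than that of any member. Gpt, which moves the amino group of alanine to glutamate, averaged 2851 ± 560.1 in STZ and 1327 ± 144 in untreated liver (1.08), and its mitochondrial relative Gpt2 rose by 0.54. Glul, glutamine synthetase, averaged 1941 ± 476 in STZ and 2849 ± 397 in untreated liver (−0.58; adjusted p = 0.0275), with overlapping arrays. Glud1, which frees ammonia from glutamate (−0.14; −0.32 to 0.03), and the mitochondrial Got2 (0.11; −0.08 to 0.30) were not called. Got1 differed by 2.26 with 0.1% and 2.11 with 0.5% phloridzin, and Glul by −0.73 (called) and −0.49 (adjusted p = 0.059).

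Of 12 transporters tested, 7 rose and 1 fell in STZ liver, beside 13.8% of all genes called. Slc7a2, a cationic amino acid transporter of hepatocytes that carries arginine and ornithine, averaged 3349 ± 128 in STZ and 1173 ± 205 in untreated liver (1.52 ± 0.19; adjusted p = 2.93e-05). Slc25a22, a mitochondrial glutamate carrier, averaged 1367 ± 146 in STZ and 604 ± 49.7 in untreated liver (1.15 ± 0.13; adjusted p = 6.3e-06), and Slc25a12, the relative of citrin in other tissues, rose by 0.61. The neutral amino acid transporters Slc38a2, Slc38a4 and Slc38a3 rose by 1.24, 0.48 and 0.35, and the glutamate transporter Slc1a2 by 1.63. Slc7a1, the widely expressed arginine transporter, was dim, at 18.6 ± 3.14 in STZ and 29.4 ± 6.73 in untreated liver (−0.39; adjusted p = 0.046). Aqp9, a channel of hepatocytes for glycerol and urea, was not called (−0.0014; −0.31 to 0.31).

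Of 12 genes of ornithine, arginine and proline use 2 were called in STZ liver, a count near the 13.8% of all genes called. Agmat, annotated as an agmatinase, rose by 0.98 ± 0.12 (adjusted p = 2.93e-05). Aldh4a1, which completes proline breakdown after the step that OAT shares, rose by 0.54 ± 0.12 (adjusted p = 0.0053). None of the 12 fell in STZ liver. Prodh, the proline dehydrogenase, had a difference of 0.69 that missed the threshold (adjusted p = 0.0703) and was called with 0.1% phloridzin (0.81). Of 4 genes of bicarbonate supply and CPS1 deacylation, the mitochondrial deacetylase Sirt3 (0.68) and the mitochondrial carbonic anhydrase Car5a (0.37) rose. Sirt5, the desuccinylase known to act on CPS1, was not called (0.01; −0.28 to 0.31).

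Of 13 regulators 2 were called in STZ liver, a count near the 13.8% of all genes called in this comparison. Ppargc1a, a coactivator of the fasting response, averaged 147 ± 50.0 in STZ and 40.2 ± 4.60 in untreated liver (1.46 ± 0.30; adjusted p = 0.00267). It was called with 0.1% (1.20) and 0.5% phloridzin (1.43) as well. Klf15, a transcription factor of amino acid breakdown, averaged 1856 ± 303 in STZ and 1048 ± 34.2 in untreated liver (0.80; adjusted p = 0.0248). The other 11 were not called in STZ liver, among them Cebpb (0.80, adjusted p = 0.0858) and the glucocorticoid receptor gene Nr3c1 (−0.40, adjusted p = 0.0758), which was called lower with 0.1% phloridzin (−0.55).

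**Figure D5:**
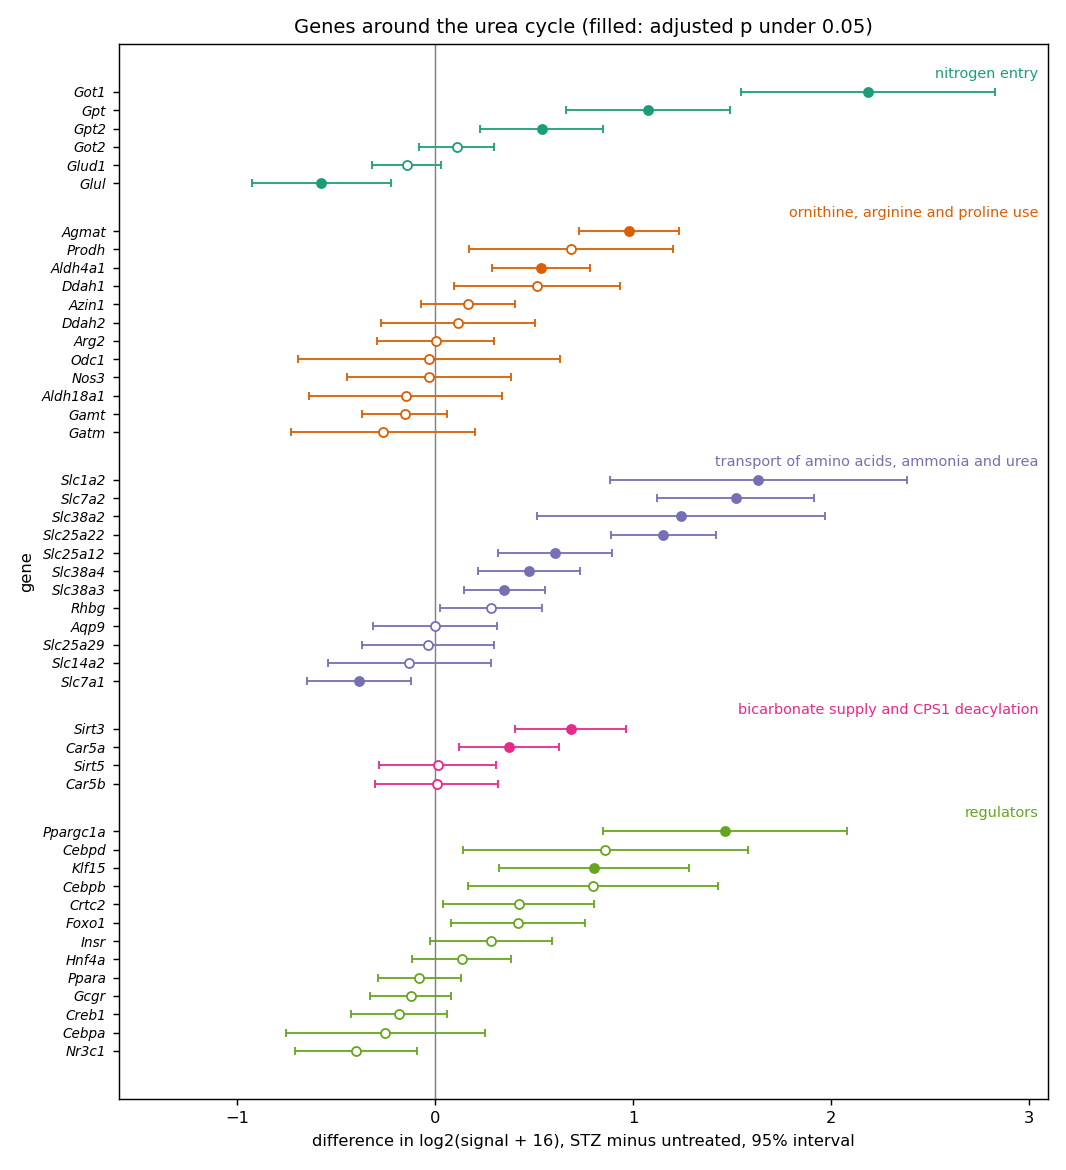
Difference in log2(signal + 16), STZ minus untreated (x axis), with 95% intervals for 47 genes in 5 lists around the urea cycle (y axis), filled where the adjusted p was under 0.05. Got1 lies farthest to the right at 2.19, and Glul and Slc7a1 are the filled points left of 0.

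Zonation markers moved in both directions, and a shift between zones was not tested. In STZ liver the median difference was 0.41 over the periportal and −0.34 over the pericentral genes tested, beside −0.05 over all genes. Against the same untreated mice the periportal median was 0.43 with 0.1% and 0.26 with 0.5% phloridzin. The pericentral median was nearer 0 there, −0.09 with 0.1% and −0.20 with 0.5% phloridzin. Of all genes 13.8% were called in STZ against untreated liver. Of 7 periportal genes tested, Aldh1b1 (1.18) and the histidine ammonia-lyase Hal (0.68) rose in STZ liver, and the adhesion gene Cdh1 fell by 1.27. Of 10 pericentral genes, Slc1a2 rose and Lect2 (−0.71), Tbx3 (−0.69), Glul (−0.58) and Cyp1a2 (−0.49) fell, and Cyp2e1 was not called (−0.22; −0.63 to 0.18). The pericentral list summed to 19286 to 26129 in STZ liver, against 26919 to 30669 in untreated liver, and its part in the level of Oat, which is a pericentral gene in mouse liver, was not tested.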

How the data were processed

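Each of 20 arrays held the liver RNA of a different mouse. The authors deposited a linear intensity for each probe set, and the values themselves showed that every array had been scaled to a mean of 100 after 2% of probe sets was trimmed at either end. The program behind them was not stated in the labels. The array carried 45101 probe sets. The platform annotation named a single gene for 34945 of them (18193 genes), several for 932 and none for 9160, and 64 were control sets. 0 columns were left unused.

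From these signals log2(signal + 16) was computed. The probe set with the highest mean over 20 arrays stood for its gene, and 12952 genes whose mean signal reached 9.00, the 40th percentile over probe sets, were kept. The lmFit and eBayes functions of limma 3.58.1 (R 4.3.3) fitted group means to all 20 arrays, two-sided (16 residual and 4.54 prior degrees of freedom). Adjusted p were by Benjamini-Hochberg over all genes kept, with a threshold of 0.05, for 6 comparisons. The fit was tested on simulated data. Correlations between genes were permuted within groups with numpy 2.4.6 in Python 3.11.15, and figures were drawn with matplotlib 3.10.9.

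The members, the gene lists and the tests were chosen with earlier results of these data known. All members are named, with up to 4 called genes of each companion list per comparison by smallest p, genes needed for a count of 5 or fewer, and the gene most like each member. Companion genes named beyond this rule, such as those not called, were chosen after their values were seen. Replicate numbers were checked for pairing: deviations of mice with the same number correlated at −0.40 to 0.50, over 0.1 in 13 of 30 pairs, and mice were not treated as paired. Alternatives were quantile normalization, median centring, other filters, a pseudocount of 1, the mean of a gene's probe sets, array weights, only the groups compared, a replicate block and leaving out each array. Other probe sets of Otc, Ass1 and Slc25a15 were an alternative chosen after seeing the data, as was leaving STZ + 0.1% phloridzin replicate 4 out of 2 of these sets. Promoters came from RefSeq on GRCm38.p6.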

Additional observations from a re-analysis of the deposited data

Results flagged for a closer look

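The dim single-gene probe set of Ass1 held 1 array far from the rest of its group. With 0.5% phloridzin, replicate 1 had a signal of 225 and the nearest other array 84.4, a gap of 0.80 of the group's range on the log2 scale, above Dixon's critical value of 0.71 for 5 arrays. It was the only such array among 36 groups of 5 looked at (9 genes in 4 groups). Chance flags about 1 group in 20, so 1 group in 36 is no more than chance gives. Without this array the Ass1 difference between 0.5% phloridzin and untreated liver was 0.13, against 0.42 with it.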

How the results depend on the processing

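Under 1566 alternatives run on the differences of 9 genes in 6 comparisons, 1502 kept their direction and their side of the threshold, 13 lost a call, 8 gained one and 43 changed sign. Among these, 0 called differences changed sign, and the largest difference that did was 0.29. Many of the settings leave the difference itself unchanged by design, so that only its side of the threshold could move. They include leaving out an array of a group not compared, the other filters, only the groups compared and the replicate block. The count of kept directions is therefore no measure of stability. Asl, Oat and Slc25a13 were called against untreated liver in 30 of 30 settings in all 3 comparisons, and Slc25a15 in all but quantile normalization at 0.1% phloridzin (0.33, adjusted p = 0.0509). Cps1 at 0.1% phloridzin was called in 18 of 30 settings. It lost the call with quantile normalization (0.19), no filter (0.38), a pseudocount of 1 (0.38) and only the groups compared (0.38), besides the arrays named above. Quantile normalization also called Cps1 (0.24, adjusted p = 0.0382) in STZ liver and Arg1 (0.41, adjusted p = 0.0047) with 0.5% phloridzin, and Ass1 passed at 0.1% phloridzin without untreated replicate 2 (0.77, adjusted p = 0.0465). The cause of these changes was not tested.

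Array weights called 25 companion genes with 0.5% phloridzin against untreated liver, where 16 had been called, and 2862 of all genes in STZ liver, against 1791. Leaving out 1 array gave 16 to 30, 18 to 24 and 12 to 24 companion calls against untreated liver for STZ, 0.1% and 0.5% phloridzin, and 6 to 13 correlated pairs. Correlated pairs numbered 15 with quantile normalization, 20 with median centring and 4 with the mean of probe sets, where 9 had passed. Each replicate number occurs once per group, so the replicate block leaves the differences unchanged and could alter calls only. It changed 0 of 54 calls of members. With it 4, 6 and 4 members and 25, 22 and 19 companion genes were called against untreated liver for STZ, 0.1% and 0.5% phloridzin.

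These differences changed sign. Quantile normalization gave −0.0016 for Nags in STZ against untreated liver, −0.044 for Cps1 and −0.0041 for Arg1 in 0.1% phloridzin against STZ, −0.025 for Ass1 in 0.5% phloridzin against STZ, and 0.012 for Otc in 0.5% phloridzin against untreated liver. Median centring gave −0.0064 for Slc25a13 in 0.1% phloridzin against STZ, −0.055 for Ass1 in 0.5% phloridzin against STZ, and 0.0033 for Otc and 0.017 for Nags in 0.5% phloridzin against untreated liver. Array weights gave −0.062 for Ass1 and 0.0038 for Nags in 0.5% phloridzin against STZ, and 0.011 for Nags in 0.5% phloridzin against untreated liver. A pseudocount of 1 gave −0.0087 for Ass1 in 0.5% phloridzin against STZ. The mean of probe sets gave −0.25 for Otc in STZ and −0.22 in 0.1% phloridzin against untreated liver, and −0.071 for Slc25a15 in 0.5% against 0.1% phloridzin.

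Of single probe sets, the dimmest of Otc gave −0.55 in STZ and −0.61 in 0.1% phloridzin against untreated liver, and −0.055 in 0.1% phloridzin against STZ. The middle set of Otc gave −0.25 in STZ and −0.26 in 0.1% phloridzin against untreated liver, −0.0083 in 0.1% and 0.10 in 0.5% phloridzin against STZ, and 0.11 between the doses. The dimmer Slc25a15 set gave −0.18 between the doses, and the Ass1 and Gm5424 set −0.025 in 0.5% phloridzin against STZ. Leaving out 1 array, Nags ranged from −0.058 to 0.063 in STZ and −0.031 to 0.023 in 0.5% phloridzin against untreated liver, and Otc from −0.092 to 0.032 in 0.5% phloridzin against untreated liver. In 0.1% phloridzin against STZ, Asl ranged from −0.19 to 0.056 and Slc25a13 from −0.026 to 0.10. In 0.5% phloridzin against STZ, Cps1 ranged from −0.089 to 0.0021, Ass1 from −0.29 to 0.11, Arg1 from −0.11 to 0.027 and Nags from −0.067 to 0.054. Between the doses, Slc25a15 ranged from −0.017 to 0.11. The signal over background of the dim sets of Ass1 and Otc limits what they can resolve.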
